A study of Mus musculus with 15 samples.

Results

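Myc and the genes of ribosome biogenesis were followed across bone marrow-derived macrophages (BMDMs, mature macrophages grown from mouse bone marrow) that had received IL-4 or IL-13, alone or together with IL-6. The list held 52 genes, Myc itself and 51 genes for the factors that make ribosomes, named by symbol and matched to the 53465 mouse gene identifiers of the count matrix. All 52 were found. Wdr74, an assembly factor of the large ribosomal subunit, was listed at a count of 0 in all 15 libraries, so 51 genes were tested. The tested genes held between 124 and 22400 counts in every library, so all 51 passed the filter on low counts in every group.

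Per the study's methods, the bone marrow came from mice at 8 to 12 weeks of age. The cells were grown for 7 days in medium with 10% serum and 20 ng/ml of M-CSF, a growth factor that makes macrophages. Groups of 3 libraries each then received no further cytokine (control), IL-4 at 10 ng/ml alone or with IL-6 (IL-4/IL-6), or IL-13 at 40 ng/ml alone or with IL-6 (IL-13/IL-6), for 24 h, and IL-6 was given at 40 ng/ml. All 5 groups share the culture in M-CSF, and no group with IL-6 alone was analysed here, so the comparisons show what IL-4 or IL-13 does over control and what IL-6 adds to each. The study describes the libraries of its IL-4 sequencing as biological replicates, while neither it nor the labels say whether the 3 libraries of a group came from separate mice or from separate cultures, so p-values measure the spread between these libraries.

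Making ribosomes starts in the nucleolus. RNA polymerase I transcribes the ribosomal RNA precursor, small nucleolar ribonucleoproteins (snoRNPs) guide its chemical modification, and a long series of helicases, GTPases and scaffold proteins folds and cuts it into the small and the large subunit. Myc is a transcription factor that, paired with Max, binds E-box motifs (CACGTG) and is known for driving cell growth through many of these genes, and in macrophages Myc has been tied to IL-4 signaling.

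The promoters of the members were searched for this motif, which reads the same on both strands, in windows from 250 bases before to 50 bases after the start in RefSeq (GRCm38.p6), the same assembly that the submitters' processing notes name. A window was given for 44 of the 51 tested members, and none for Myc, Npm1, Fbl, Bop1, Rrp12, Rrs1 and Tcof1. CACGTG lay in 8 of the 44 windows (18.2%), beside 11.8% of the 9984 tested genes with a window and 8.09% of all 27025 windows. The related letters CACGCG or CGCGTG, the same motif on its opposite strands, lay in 14 of 44 (31.8%), beside 19.6% and 10.5%. These shares are a description, and a match is not a site that was shown to be bound. Below are 30 bases of the 4 members with the motif that had the largest fold changes on IL-6 co-addition to IL-4, all on the plus strand, with the E-box in capitals.

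Mybbp1a, chr11:72441347-72441376: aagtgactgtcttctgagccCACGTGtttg

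Nop2, chr6:125131811-125131840: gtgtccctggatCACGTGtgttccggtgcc

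Pes1, chr11:3963965-3963994: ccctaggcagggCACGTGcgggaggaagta

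Wdr43, chr17:71616220-71616249: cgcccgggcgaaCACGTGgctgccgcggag

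In Mybbp1a, Pes1 and Wdr43 the motif begins 40, 2 and 17 bases after the start, and in Nop2 it begins 60 bases before it (distance of -60). The 8 members with CACGTG had a median log2 fold change of 1.32 with IL-4 over control, and the 36 members without it had 1.31. On IL-6 co-addition to IL-4 the medians were 0.21 and 0.32. Letters absent from a window say nothing about the factor.

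Levels are given as CPM, counts divided by the library total and scaled by TMM factors (normalized CPM), so that a change in total RNA per cell would not be seen. The library totals lay between 17001352 and 18918686 counts. IL-4/IL-6 replicate 2 and IL-13 replicate 1 stood apart from the other replicates of their groups, and there the members' deviations from the group means followed transcript length. In IL-4/IL-6 replicate 2 the 17 shortest members lay 0.29 (median, log2) above and the 17 longest 0.14 below (deviation of -0.14) their group means. In IL-13 replicate 1 the shortest lay 0.20 above. Counts and medians of members on IL-6 co-addition are therefore given with and without both of them, as are the calls that this changed and the called values that it moved by over 1.5 times. Macrophage genes such as Csf1r and Cd68 were high in all 5 groups (Csf1r 2195 ± 97.0 in control and 1824 ± 59.5 with IL-4, mean ± SD, n = 3), while Mertk was at 143 ± 12.2 in control and 8.27 ± 1.11 with IL-4. The summed level of 9 macrophage markers was 19795 to 22144 normalized CPM in control, 15618 to 16089.5 with IL-4, 11988 to 14266 with IL-4/IL-6, 18151 to 21143 with IL-13 and 15574 to 16709 with IL-13/IL-6, so that it was lowest in the IL-4/IL-6 libraries. Most of this sum was Lyz2 (lysozyme), at 14924 ± 964 in control, 9698 ± 317 with IL-4, 6852 ± 1046 with IL-4/IL-6, 12745 ± 1531 with IL-13 and 8692 ± 354 with IL-13/IL-6. Other markers of the list went the other way with IL-6. Adgre1 (F4/80) was at 884 ± 23.6 with IL-4, 1288 ± 78.5 with IL-4/IL-6, 941 ± 51.9 with IL-13 and 1454 ± 5.82 with IL-13/IL-6, and Fcgr1, an antibody receptor, at 101 ± 1.23, 217 ± 22.2, 188 ± 12.7 and 479 ± 71.4. The part of these shifts in the members' differences was not tested.

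The control libraries also held RNA of other blood cells, which moved with every comparison against control. The summed level of 10 granulocyte and progenitor markers was 399 to 463 in control, 8.62 to 10.8 with IL-4, 3.11 to 3.54 with IL-4/IL-6, 11.8 to 14.3 with IL-13 and 5.45 to 6.02 with IL-13/IL-6, and Ltf and Camp were at 0 in all 3 IL-4 libraries. Itga2b, a megakaryocyte integrin, was at 122, 109.9 and 110.0 in control and at 1.498, 0.996 and 1.91 with IL-4. The sums of the B cell, stromal, and basophil, mast cell and eosinophil markers that passed the filter on low counts were 10.8 to 12.3, 15.2 to 20.4 and 18.7 to 21.9 in control, and at most 1.66 in any library with a cytokine. Of the T and NK cell markers only Cd4 passed, at 24.1, 29.6 and 27.6 in control and at most 0.394 in any library with a cytokine. No erythroid marker passed, and the 5 together had 16 to 23 counts in a control library and 0 to 8 in a library with a cytokine. The sum of 5 megakaryocyte and platelet markers was 371 to 416 in control, 70.4 to 74.8 with IL-4, 175 to 314 with IL-4/IL-6, 72.8 to 89.7 with IL-13 and 349 to 422 with IL-13/IL-6. Of these, Pf4, a chemokine of platelets, moved with IL-6, from 66.2, 68.4 and 71.4 with IL-4 to 226, 309 and 169.9 with IL-4/IL-6 and from 86.3, 70.4 and 69.6 with IL-13 to 415, 343 and 412 with IL-13/IL-6, while Itga2b stayed at or below 2.31 in all 12 of these libraries. The part of these cells in the differences was not tested, and in bulk RNA fewer cells of a type and less RNA per cell cannot be told apart.

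Summed over the list, the members took a larger share of the RNA with either cytokine. They made up 0.242% ± 0.00252 (SD, n = 3) of all counts in control, 0.601% ± 0.0141 with IL-4, 0.715% ± 0.0161 with IL-4/IL-6, 0.514% ± 0.0151 with IL-13 and 0.514% ± 0.00832 with IL-13/IL-6. The IL-4 share did not overlap with control, the IL-4/IL-6 share did not overlap with IL-4, and the IL-13 and IL-13/IL-6 shares overlapped. An exact two-sided permutation test gave p = 0.1 for IL-4 and for IL-13 over control and for IL-4/IL-6 against IL-4 alone, the smallest p that 3 against 3 libraries allow, and p = 1.0 for IL-13/IL-6 over IL-13.

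With IL-4 over control, 51 of 51 tested members were called higher (adjusted p under 0.05 over all 13938 tested genes). Of all tested genes, 32.1% were called higher and 35.9% lower. The members' log2 fold changes ran from 0.40 (Polr1c) to 3.38 (Myc) with a median of 1.37, beside -0.05 over all tested genes, and 41 of them lay above 1. With IL-13 over control, 50 of 51 were called higher and none lower, beside 29.0% and 31.1% of all tested genes. The median was 1.17, beside -0.02, and Polr1c was the exception at 0.03 ± 0.10 (SE). The IL-4 and IL-13 doses differed, so their values stand side by side and were not compared. With both cytokines the members also lay above control. With IL-4/IL-6, 51 of 51 were called higher (35.4% of all tested genes higher, 37.5% lower) with a median of 1.62, and with IL-13/IL-6, 50 of 51 (31.9% higher, 32.1% lower) with a median of 1.24, Polr1c again being the exception. All 4 comparisons use the same control libraries. Each of these calls held in all 24 alternative settings of the fit.

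**Figure D1:**
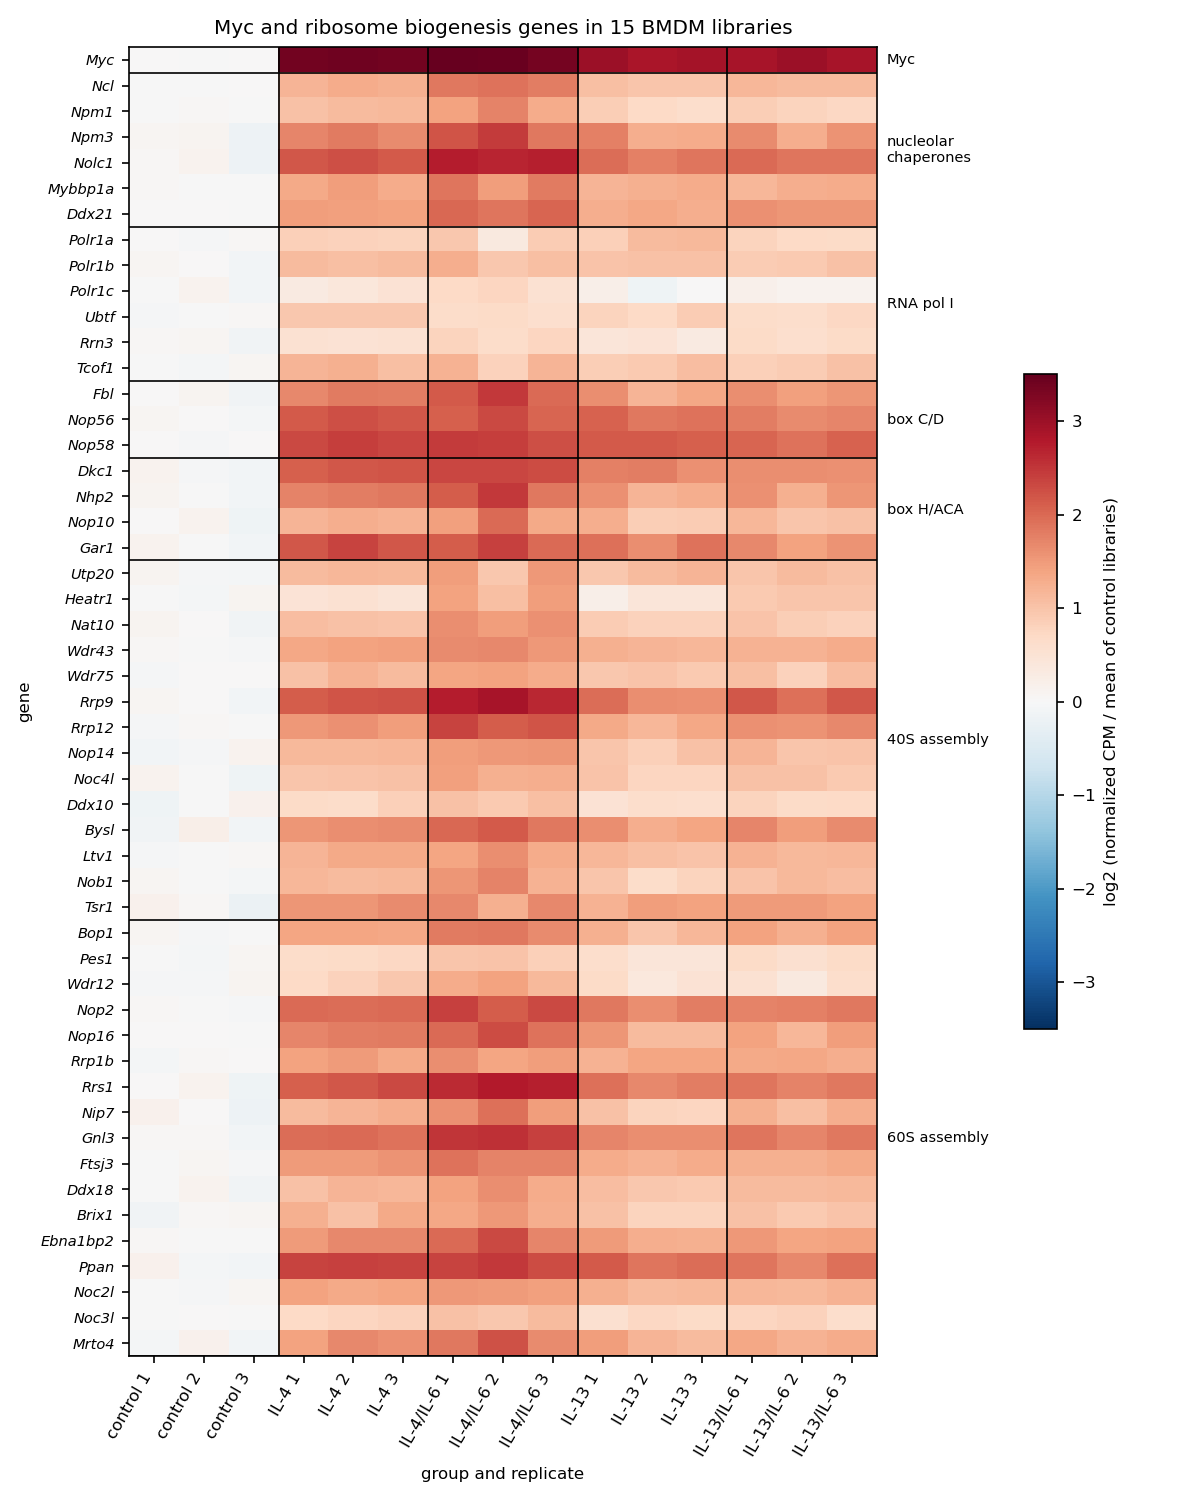
Level of each of the 51 tested members (rows, by role) in each of the 15 libraries (columns), as log2 of the normalized CPM over the mean of the 3 control libraries, where red is higher. All rows turn red in the libraries with IL-4, Myc most of all, while Polr1c stays near white in the IL-13 libraries.

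Co-addition of IL-6 to IL-4 gave a further rise in part of the list. Against IL-4 alone, 34 of 51 members were called higher, 1 (Ubtf) lower and 16 not called, beside 20.7% of all tested genes called higher and 18.7% lower. The median of the members was 0.30, beside 0.04 over all tested genes. Scaling by library totals gave 22 members higher and 1 lower, with 2008 of all genes higher and 3281 lower in place of 2885 and 2603, and upper-quartile factors gave 23 and 1, with 2073 and 3245. Without IL-4/IL-6 replicate 2 and IL-13 replicate 1 together, 31 were higher and 1 lower, with a median of 0.217, beside 21.7% and 21.2% of all tested genes. Utp20 was then called higher at 0.35 (adjusted p = 3.35e-05), and the calls of Polr1c, Nhp2, Nop10 and Mrto4 were lost, at 0.19 (adjusted p = 0.0613), 0.18 (adjusted p = 0.0768), 0.14 (adjusted p = 0.124) and 0.17 (adjusted p = 0.0997). Without IL-4 replicate 1 the count of higher members fell to 22 (43.1%, beside 15.7% of all tested genes). Of the 35 calls, 19 held in all 24 alternatives, Ubtf among them.

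Co-addition of IL-6 to IL-13 moved few members in the fit of all 15 libraries, and more without the libraries that stood apart. In IL-13/IL-6 over IL-13, 7 of 51 were called higher (Ddx21, Rrn3, Heatr1, Rrp9, Rrp12, Bop1 and Nip7) and 2 lower (Polr1a and Nop56), beside 12.1% and 13.5% of all tested genes. In the fit of all libraries the share of members called higher (13.7%) lay near the background, and the share called lower (3.92%) lay below it. The median was 0.06. Scaling by library totals turned it to -0.01, with 4 members higher and 6 lower, and with 1268 of all genes higher and 2325 lower in place of 1684 and 1879. The call of 3 members (Ddx21, Heatr1 and Rrp12) held in all 24 alternatives. Without IL-4/IL-6 replicate 2 and IL-13 replicate 1, 17 members (33.3%) were higher and 3 lower, beside 2425 higher and 2569 lower of 14261 tested genes, the members' median was 0.118, and all 9 calls were kept. The 10 members that were then also called higher were Ncl at 0.16 (adjusted p = 0.00929), Gnl3 at 0.18 (adjusted p = 0.0272), Pes1 at 0.20 (adjusted p = 0.0116), Nob1 at 0.34 (adjusted p = 0.00372), Fbl, Nhp2, Noc4l, Bysl, Nop16 and Ddx18, the last 6 at 0.18 (Ddx18) to 0.26 (Bysl), and the added lower call was Ubtf at -0.15 (adjusted p = 0.0488). Leaving out 1 library gave between 0 and 3 lower. Without IL-13 replicate 2 the count of higher members was 4, and it was 3 without IL-13 replicate 3, without IL-13/IL-6 replicate 1 or without IL-13/IL-6 replicate 3. In these fits 9.29% to 10.4% of all tested genes were higher, above the share of members (5.88% to 7.84%).

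**Figure D2:**
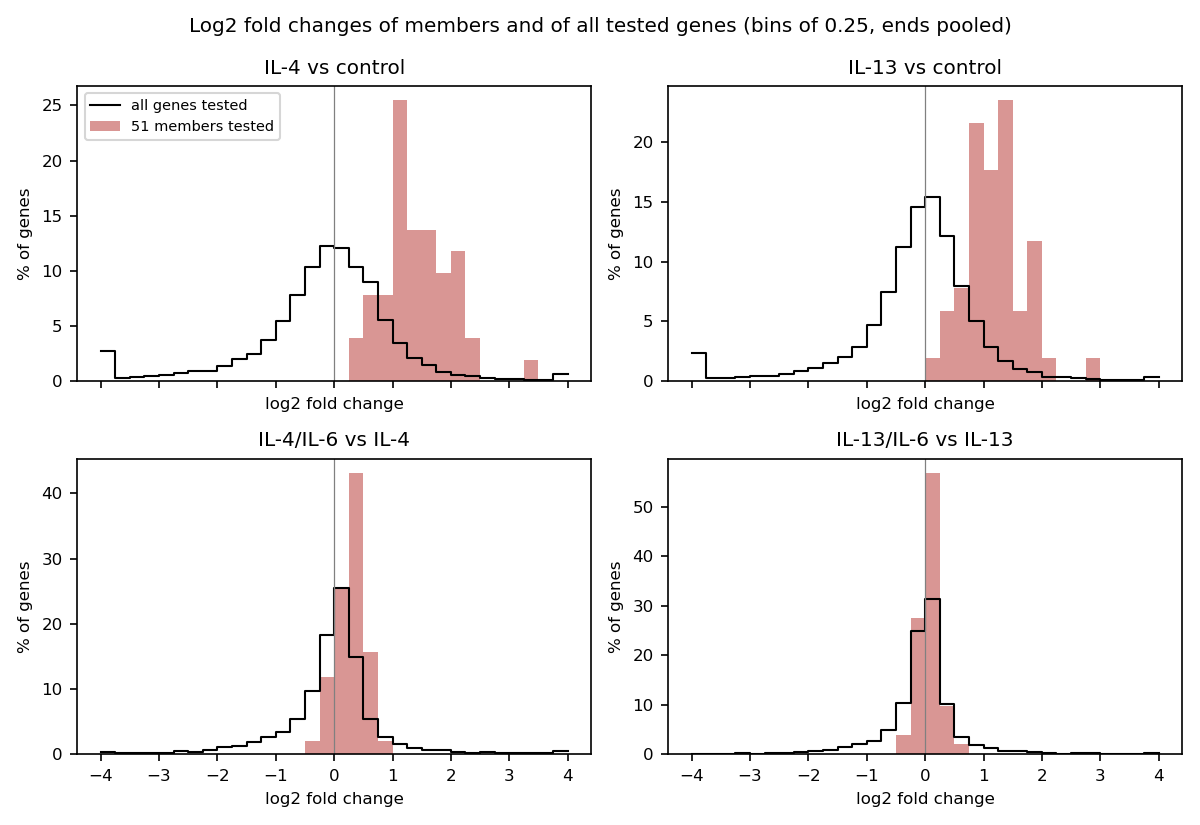
Percent of genes (y axis) in bins of log2 fold change (x axis, 0.25 wide, ends pooled) for the 51 tested members (red bars) and all 13938 tested genes (black line) in 4 comparisons. The members sit to the right of all genes with IL-4 (median 1.37) and IL-13 (1.17) over control, less far with IL-6 on IL-4 (0.30), and around 0 in IL-13/IL-6 over IL-13 (0.06).

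Myc had the largest fold change of the members with IL-4 and with IL-13. The gene lies at chr15:61985391-61990374 on the plus strand (GENCODE, GRCm38), and no exon of another annotated gene overlaps it. Its level was 11.8, 11.6 and 11.9 normalized CPM in the control libraries, 123, 124 and 123 with IL-4 and 133, 130.4 and 121 with IL-4/IL-6. With IL-13 it was 94.0, 85.9 and 88.9, and with IL-13/IL-6 87.2, 93.5 and 86.2. Every library with a cytokine lay above every control library, while adding IL-6 gave overlapping values in both backgrounds. The log2 fold change was 3.38 ± 0.07 (SE), adjusted p = 9.73e-16, with IL-4, a 10.4-fold higher level, and 2.93 ± 0.07 (SE), adjusted p = 9.52e-15, with IL-13. IL-6 co-addition changed Myc by 0.06 ± 0.06 (SE), adjusted p = 0.475, on IL-4 and by -0.01 ± 0.06 (SE), adjusted p = 0.936, on IL-13, neither of which was called.

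The 6 nucleolar chaperones and scaffold proteins rose with IL-4 (6 of 6, median 1.40) and rose again when IL-6 was co-added to IL-4 (6 of 6, median 0.49). Of all tested genes, 32.1% were higher with IL-4 and 20.7% with IL-6 on IL-4. On IL-13 only Ddx21 of the 6 (16.7%, beside 12.1% of all tested genes) was called with IL-6, and without both libraries that stood apart Ncl was called too. Nolc1, a chaperone of snoRNPs, had the largest IL-4 response of the group. It was at 40.3, 42.8 and 34.6 in control, 177, 189 and 174 with IL-4, 265, 251 and 257 with IL-4/IL-6, 151, 133 and 145 with IL-13 and 156, 145 and 145 with IL-13/IL-6. Its levels did not overlap between IL-4 and IL-4/IL-6, and they overlapped between IL-13 and IL-13/IL-6. The log2 fold changes were 2.198 ± 0.08 (IL-4), 1.86 ± 0.08 (IL-13), 0.52 ± 0.07 (IL-6 on IL-4, adjusted p = 2.23e-05) and 0.06 ± 0.07 (IL-6 on IL-13, adjusted p = 0.661).

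Ncl (nucleolin), an abundant RNA-binding protein of the nucleolus, had the largest response to IL-6 on IL-4 within this group in the fit of all libraries. Without both libraries that stood apart, Ddx21 (0.59) lay above Ncl (0.55). The level of Ncl was 354, 353 and 356 in control, 807, 868 and 846 with IL-4 and 1270.2, 1317 and 1216 with IL-4/IL-6. With IL-13 it was 734, 691 and 690.1, and with IL-13/IL-6 798, 757 and 766. All groups with a cytokine lay above control, and the IL-4/IL-6 libraries stood above all others. The change on IL-6 co-addition was 0.59 ± 0.05 (SE), adjusted p = 1.05e-07, with IL-4 and 0.13 ± 0.05 (SE), adjusted p = 0.0844, with IL-13, where the libraries of the groups did not overlap but the call was not made. It was made without both libraries that stood apart, at 0.16 (adjusted p = 0.00929), and by DESeq2. Npm1 (nucleophosmin), a histone chaperone with many processed gene copies that can share its reads, had the smallest IL-4 response of the group. It was at 304, 317 and 306 in control, 624, 662 and 676 with IL-4, 813, 1036 and 759 with IL-4/IL-6, 561, 499 and 476 with IL-13 and 557, 532 and 507 with IL-13/IL-6. The highest value was in IL-4/IL-6 replicate 2, the library that stood apart. The changes were 1.08 ± 0.09 (IL-4), 0.73 ± 0.09 (IL-13) and 0.41 ± 0.09 (SE), adjusted p = 0.00181, for IL-6 on IL-4, which was 0.25 (adjusted p = 0.00028) without both libraries that stood apart.

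Mybbp1a, a nucleolar partner of several transcription factors, had the smallest response of the group to IL-6 on either background in the fit of all libraries. It was at 267, 288 and 261 with IL-4, 389, 289 and 371 with IL-4/IL-6, 241, 251 and 261 with IL-13 and 237, 255 and 258 with IL-13/IL-6. IL-4/IL-6 replicate 2 lay just above the highest IL-4 library, and the other two libraries lay well above it. The log2 changes were 0.36 ± 0.09 (adjusted p = 0.00286) on IL-4 and 0.00 ± 0.09 on IL-13, and without both libraries that stood apart the change on IL-4 was 0.47 (adjusted p = 1.29e-07), above those of Npm1 (0.25) and Npm3 (0.30). Ddx21, an RNA helicase that couples RNA polymerase I and II transcription, responded to IL-6 in both backgrounds, from 259, 254 and 248 with IL-4 to 383, 347 and 388 with IL-4/IL-6, and from 229, 241 and 227 with IL-13 to 285, 276 and 275 with IL-13/IL-6. Neither pair of groups overlapped, and the changes were 0.55 ± 0.06 (adjusted p = 4.42e-07) and 0.26 ± 0.06 (adjusted p = 0.00211). Npm3, a relative of nucleophosmin, changed by 1.73 ± 0.16 with IL-4 and 0.47 ± 0.15 (adjusted p = 0.0179) with IL-6 on IL-4, which was 0.30 (adjusted p = 0.0289) without both libraries.

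**Figure D3:**
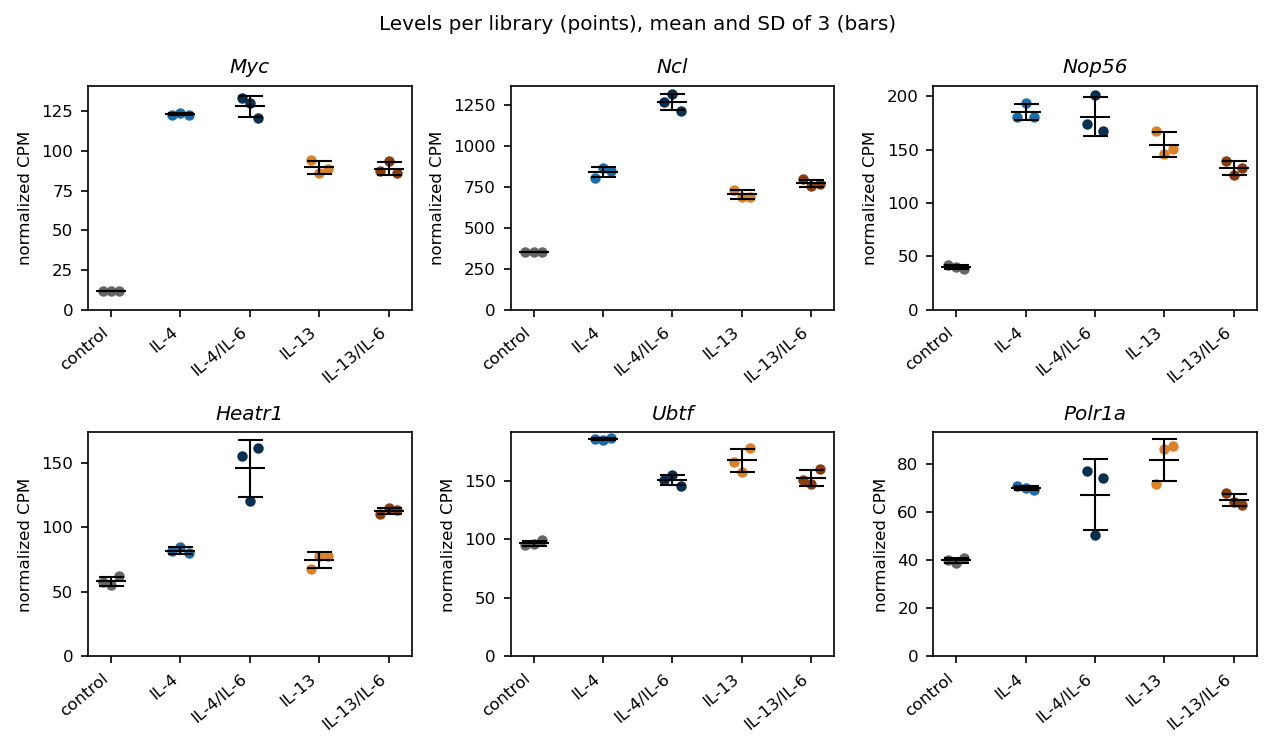
Normalized CPM (y axis, from 0) of Myc, Ncl, Nop56, Heatr1, Ubtf and Polr1a in the 5 groups, with a point for each library and bars for the mean ± SD of 3. Points of Myc and of Nop56 overlap between IL-4 and IL-4/IL-6, those of Ncl and Heatr1 are higher with IL-6, those of Ubtf are lower, and Polr1a has a low point in IL-4/IL-6 replicate 2 (50.4).

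The RNA polymerase I genes had the lowest median rise with IL-4 of the role groups. All 6 rose with IL-4, with a median of 0.87, and 5 of 6 (83.3%) with IL-13, beside 32.1% and 29.0% of all tested genes. On IL-6 co-addition to IL-4, 2 (33.3%) rose (Polr1c and Rrn3), 1 (16.7%) fell (Ubtf) and 3 were not called, with a median of -0.02. Of all tested genes, 20.7% rose and 18.7% fell in that comparison. Ubtf, which binds and opens the ribosomal DNA repeats, was at 94.8, 96.3 and 99.1 in control, 186, 185 and 187 with IL-4, 151, 155 and 146 with IL-4/IL-6, 166, 158 and 178 with IL-13 and 150.4, 147 and 160.4 with IL-13/IL-6. All 3 IL-4/IL-6 libraries lay below all 3 IL-4 libraries and above all controls. The change with IL-4 was 0.94 ± 0.06 and that with IL-6 on IL-4 -0.30 ± 0.06 (SE), adjusted p = 0.00051, a call that held in all 24 alternatives. On IL-13 it was -0.13 ± 0.06 (SE), adjusted p = 0.121, and not called. A lower call was made without both libraries that stood apart, at -0.15 (adjusted p = 0.0488), without IL-13 replicate 2, and with library totals or upper-quartile factors.

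Polr1c, a subunit shared by RNA polymerases I and III, was the member with the smallest IL-4 and IL-13 responses. Its level was 27.9, 30.6 and 26.5 in control, 35.1, 37.3 and 40.1 with IL-4, 45.7, 47.6 and 40.8 with IL-4/IL-6, 32.8, 25.5 and 28.4 with IL-13 and 31.9, 31.1 and 31.1 with IL-13/IL-6. Only the IL-13 libraries overlapped with control among the groups without IL-6. The changes were 0.40 ± 0.09 (SE), adjusted p = 0.00121, with IL-4, 0.03 ± 0.10 (SE), adjusted p = 0.82, with IL-13, and 0.25 ± 0.09 (SE), adjusted p = 0.0381, with IL-6 on IL-4, a call lost without both libraries that stood apart (0.19). Tcof1 (treacle), a nucleolar cofactor of RNA polymerase I, had the largest IL-4 response of this group. It was at 68.7, 65.9 and 72.2 in control, 156, 164 and 144 with IL-4 and 159, 121 and 158 with IL-4/IL-6, so that the latter groups overlapped. Its changes were 1.17 ± 0.10 with IL-4 and -0.08 ± 0.10 (SE), adjusted p = 0.525, with IL-6.

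Polr1a, the largest catalytic subunit, was at 40.3, 38.9 and 40.8 in control, 70.8, 70.1 and 69.1 with IL-4, 77.2, 50.4 and 74.4 with IL-4/IL-6, 71.9, 86.4 and 87.5 with IL-13 and 68.1, 64.3 and 63.1 with IL-13/IL-6. IL-4/IL-6 replicate 2 was lower than all IL-4 libraries, while the other two of its group lay above them. With IL-13 it rose by 1.03 ± 0.12, the largest IL-13 response of this group, and IL-6 on IL-13 changed it by -0.33 ± 0.12 (SE), adjusted p = 0.0485, a call near the threshold that was lost in some alternatives and was -0.42 (adjusted p = 2.46e-06) without both libraries that stood apart. Rrn3, the factor that brings the polymerase to the promoter, rose with IL-6 in both backgrounds. It was at 51.3, 50.2 and 51.02 with IL-4, 60.2, 54.8 and 58.7 with IL-4/IL-6, 47.6, 49.0 and 44.0 with IL-13 and 56.1, 53.4 and 55.7 with IL-13/IL-6. The groups with and without IL-6 did not overlap, and the changes were 0.19 ± 0.07 (SE), adjusted p = 0.0445, and 0.23 ± 0.07 (SE), adjusted p = 0.0221, neither of which held in all alternatives. Polr1b, the other large subunit, was at 18.1, 17.5 and 16.0 in control, 37.1, 35.4 and 37.4 with IL-4, 41.7, 33.0 and 36.0 with IL-4/IL-6, 34.2, 34.8 and 34.9 with IL-13 and 31.6, 32.4 and 35.0 with IL-13/IL-6. IL-6 gave overlapping values in both backgrounds. It changed by 1.09 ± 0.09 with IL-4 and 0.01 ± 0.08 (SE), adjusted p = 0.939, with IL-6 on IL-4.

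The core proteins of both snoRNP classes had the highest median rise with IL-4 of the role groups. The 3 proteins of box C/D snoRNPs, which methylate ribosomal RNA, had a median of 2.19 with IL-4 and 1.93 with IL-13, and the 4 proteins of box H/ACA snoRNPs, which convert uridine to pseudouridine, had 1.97 and 1.54. All 7 were called higher in both comparisons, beside 32.1% (IL-4) and 29.0% (IL-13) of all tested genes. With IL-6 on IL-4, 3 of the 7 rose (Fbl, Nhp2 and Nop10), beside 20.7% of all tested genes. Nop58, a box C/D scaffold, was at 24.8, 23.9 and 24.5 in control, 121, 131 and 123 with IL-4, 134, 129.8 and 117 with IL-4/IL-6, 108, 108 and 105 with IL-13 and 101, 91.2 and 102 with IL-13/IL-6. Libraries with IL-4 alone and with IL-4/IL-6 overlapped, and all IL-13/IL-6 libraries lay below all IL-13 libraries. Its changes were 2.36 ± 0.07 with IL-4, 2.13 ± 0.07 with IL-13, 0.02 ± 0.07 (SE), adjusted p = 0.843, with IL-6 on IL-4 and -0.12 ± 0.07 (SE), adjusted p = 0.206, with IL-6 on IL-13.

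Nop56, the partner of Nop58 in the same particle, was at 42.3, 40.6 and 38.6 in control, 180.2, 194 and 181 with IL-4, 174, 201 and 167 with IL-4/IL-6, 168, 146 and 151 with IL-13 and 139.6, 127 and 133 with IL-13/IL-6. The IL-13/IL-6 libraries all lay below the IL-13 libraries. It rose by 2.19 ± 0.08 with IL-4, IL-6 gave -0.03 ± 0.08 (SE), adjusted p = 0.78, on IL-4 and -0.22 ± 0.08 (SE), adjusted p = 0.0455, on IL-13, and the last call was lost in some alternatives. Fbl (fibrillarin), the methyltransferase of the particle, was at 47.1, 49.3 and 43.0 in control, 148, 163 and 161 with IL-4, 207, 256 and 185 with IL-4/IL-6, 144, 107 and 119.8 with IL-13 and 142, 126 and 135 with IL-13/IL-6. The IL-4/IL-6 libraries all lay above the IL-4 libraries, with the highest value in replicate 2. Fbl changed by 1.76 ± 0.12 with IL-4, the smallest of the 3 box C/D genes, and by 0.46 ± 0.11 (SE), adjusted p = 0.00343, with IL-6. Without both libraries that stood apart, IL-6 gave Fbl 0.30 (adjusted p = 0.000807) on IL-4 and 0.23 (adjusted p = 0.0114) on IL-13.

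Gar1, a box H/ACA protein, was at 8.13, 7.43 and 6.96 in control, 34.1, 38.4 and 33.6 with IL-4, 32.5, 39.4 and 29.7 with IL-4/IL-6, 28.4, 23.0 and 28.0 with IL-13 and 24.2, 19.7 and 22.1 with IL-13/IL-6. It rose by 2.23 ± 0.13 with IL-4, and its levels with IL-6 overlapped with those without. IL-6 gave -0.06 ± 0.11 (SE), adjusted p = 0.71, on IL-4 and -0.27 ± 0.12 (SE), adjusted p = 0.111, on IL-13. Nop10, the smallest protein of the particle, was at 23.4, 25.05 and 21.1 in control, 52.9, 55.6 and 53.8 with IL-4 and 62.8, 91.1 and 58.1 with IL-4/IL-6, where replicate 2 was far above the others. Its IL-4 response of 1.22 ± 0.15 was the smallest of the box H/ACA genes, and its call with IL-6 (0.38 ± 0.14 (SE), adjusted p = 0.0375) was lost without both libraries that stood apart (0.14) and in other alternatives. With IL-13 Nop10 was at 56.4, 42.3 and 43.0 and with IL-13/IL-6 at 52.1, 45.2 and 47.2, and IL-13 replicate 1 was the highest of these. Nhp2, an RNA-binding protein of the particle, was at 46.0, 42.9 and 40.3 in control, 144, 149 and 155 with IL-4, 185, 239 and 156 with IL-4/IL-6, 131, 97.6 and 105 with IL-13 and 130.0, 103 and 126 with IL-13/IL-6. The IL-4/IL-6 libraries lay above the IL-4 libraries, and those of IL-13 and IL-13/IL-6 overlapped (0.11 ± 0.13 (SE), adjusted p = 0.631). Counted with its sign, this was the highest change of the box H/ACA genes with IL-6 on IL-13, while that of Gar1 was larger in size. Nhp2 rose by 1.79 ± 0.14 with IL-4, and its call with IL-6 (0.37 ± 0.13 (SE), adjusted p = 0.0326) was lost likewise (0.18). Dkc1 (dyskerin), the pseudouridine synthase, was at 15.9, 14.2 and 13.7 in control, 62.9, 65.5 and 67.4 with IL-4 and 74.3, 74.0 and 70.7 with IL-4/IL-6, a rise of 2.15 ± 0.08 and then 0.16 ± 0.07 (SE), adjusted p = 0.0736, not called although the groups did not overlap. With IL-13 Dkc1 was at 49.3, 50.6 and 44.5 and with IL-13/IL-6 at 45.6, 45.6 and 44.5.

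The 14 genes of small subunit assembly all rose with IL-4 (median 1.14) and with IL-13 (median 1.01), beside 32.1% and 29.0% of all tested genes. With IL-6 on IL-4, 11 of 14 (78.6%, beside 20.7% of all tested genes) rose and none fell (median 0.34). On IL-13, 3 of 14 (21.4%, beside 12.1% of all tested genes) rose (median 0.13), and of these the call of Rrp9 did not hold in all alternatives. Heatr1, a component of the early complex on the ribosomal RNA precursor, had the smallest IL-4 response of the 14 and the largest response to IL-6 of all members. Its level was 57.8, 55.2 and 62.1 in control, 81.9, 84.6 and 79.9 with IL-4 and 156, 121 and 161 with IL-4/IL-6. With IL-13 it was 67.7, 78.2 and 78.2, and with IL-13/IL-6 110.4, 115 and 114. No library with IL-6 overlapped with any library without it. The changes were 0.49 ± 0.09 (SE), adjusted p = 0.000194, with IL-4, 0.83 ± 0.09 (SE), adjusted p = 1.18e-06, with IL-6 on IL-4 and 0.60 ± 0.09 (SE), adjusted p = 9.09e-05, with IL-6 on IL-13. On the annotation an exon of Lgals8 on the opposite strand overlaps Heatr1.

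Rrp9, a protein of the snoRNP that guides early cuts of the precursor, had the largest IL-4 response of these 14. It was at 11.8, 11.53 and 10.7 in control, 49.3, 51.7 and 52.8 with IL-4, 75.6, 84.2 and 70.8 with IL-4/IL-6, 43.8, 35.2 and 34.1 with IL-13 and 50.96, 43.0 and 50.7 with IL-13/IL-6. IL-4 and IL-4/IL-6 did not overlap, and IL-13 replicate 1, which stood apart, overlapped with the IL-13/IL-6 libraries. The changes were 2.18 ± 0.11 (IL-4), 1.73 ± 0.11 (IL-13), 0.58 ± 0.10 (SE), adjusted p = 9.91e-05, for IL-6 on IL-4 and 0.36 ± 0.10 (SE), adjusted p = 0.0123, for IL-6 on IL-13. Without both libraries that stood apart these last changes were 0.50 (adjusted p = 5.09e-06) and 0.47 (adjusted p = 4.82e-05). Rrp12, which takes part in subunit export, was at 17.4, 18.3 and 17.5 in control, 50.7, 53.9 and 49.0 with IL-4, 92.0, 76.9 and 81.9 with IL-4/IL-6, 44.6, 39.7 and 45.6 with IL-13 and 53.7, 52.4 and 57.3 with IL-13/IL-6. Both pairs of groups with and without IL-6 were separate, with changes of 0.71 ± 0.08 (SE), adjusted p = 1.08e-06, and 0.33 ± 0.08 (SE), adjusted p = 0.00457.

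Tsr1, a late assembly factor, and Utp20, a large early one, had the lowest IL-6 changes, counted with their sign, of the small subunit genes. This was on IL-4 for Tsr1 and on IL-13 for Utp20, in the fit of all libraries. Tsr1 was at 39.7, 39.7 and 43.2 with IL-4 and 43.5, 32.6 and 44.2 with IL-4/IL-6, and Utp20 at 92.7, 104 and 111 with IL-13 and 94.98, 105 and 99.4 with IL-13/IL-6. Both pairs overlapped, with changes of -0.03 ± 0.11 and -0.04 ± 0.11. In Tsr1 and Utp20 alike IL-4/IL-6 replicate 2 was the lowest of its group, and without both libraries that stood apart IL-6 on IL-4 gave 0.09 for Tsr1, above Ltv1 (0.04). With IL-13 Tsr1 was at 31.8, 37.8 and 36.4 and with IL-13/IL-6 at 38.4, 38.1 and 36.5. Nat10, an RNA acetyltransferase, was at 65.1, 63.2 and 62.5 with IL-4, 95.4, 85.9 and 93.3 with IL-4/IL-6, 57.9, 53.8 and 54.6 with IL-13 and 61.5, 56.4 and 54.1 with IL-13/IL-6, so that only the first pair was separate. It rose by 1.04 ± 0.07 with IL-4 and 0.53 ± 0.07 (SE), adjusted p = 1.29e-05, with IL-6 on IL-4. The other 8 genes (Wdr43, Wdr75, Nop14, Noc4l, Ddx10, Bysl, Ltv1 and Nob1) rose with IL-4 by 0.72 (Ddx10, a helicase) to 1.60 (Bysl), and all of them except Ltv1 rose again with IL-6 on IL-4. Ddx10 was at 24.1, 26.3 and 29.2 in control, 42.7, 41.4 and 46.9 with IL-4, 54.4, 50.2 and 55.1 with IL-4/IL-6, 37.9, 40.7 and 40.1 with IL-13 and 45.9, 42.1 and 43.3 with IL-13/IL-6, with no overlap between the groups with and without IL-6 in either background. The change of Ddx10 with IL-6 was 0.285 (adjusted p = 0.00805) on IL-4, a call that did not hold in all alternatives. On IL-13 the change of Ddx10 was 0.147 (adjusted p = 0.209) and not called. For Nob1 the change with IL-6 on IL-4 was 0.38 ± 0.11, and 0.25 (adjusted p = 0.0195) without both libraries that stood apart.

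For large subunit assembly, all 17 tested genes rose with IL-4 (median 1.42) and with IL-13 (median 1.26), beside 32.1% and 29.0% of all tested genes. With IL-6 on IL-4, 12 (70.6%) rose (median 0.30), beside 20.7% of all tested genes. With IL-6 on IL-13, 2 (11.8%) were called higher (median 0.07), a share near the 12.1% of all tested genes. Ppan, an early factor, had the largest IL-4 response after Myc. It was at 17.8, 15.3 and 15.1 in control, 83.2, 84.4 and 83.4 with IL-4, 82.9, 88.9 and 78.7 with IL-4/IL-6, 71.6, 58.7 and 61.8 with IL-13 and 58.4, 51.1 and 61.0 with IL-13/IL-6. Libraries with IL-4 alone and with IL-4/IL-6 overlapped, and so did those of IL-13 and IL-13/IL-6. Ppan changed by 2.38 ± 0.10 with IL-4, 1.99 ± 0.10 with IL-13, 0.00 ± 0.09 (SE), adjusted p = 0.988, with IL-6 on IL-4 and -0.17 ± 0.09 (SE), adjusted p = 0.178, with IL-6 on IL-13.

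Pes1, Bop1 and Wdr12 form one complex. Pes1 had the smallest IL-4 response of the large subunit genes, from 81.2, 78.7 and 86.5 in control to 129, 132 and 136 with IL-4, and was at 162, 164 and 145 with IL-4/IL-6, 125, 111 and 111 with IL-13 and 132, 121 and 130.4 with IL-13/IL-6. It rose by 0.69 ± 0.07 with IL-4, 0.49 ± 0.07 with IL-13 and 0.25 ± 0.07 (SE), adjusted p = 0.00796, with IL-6 on IL-4. For Bop1 these changes were 1.38 ± 0.08, 1.13 ± 0.08 and 0.40 ± 0.08 (SE), adjusted p = 0.00036, and for Wdr12 they were 0.82 ± 0.10, 0.52 ± 0.10 and 0.46 ± 0.10 (SE), adjusted p = 0.000986. Wdr12 was at 24.9, 25.05 and 27.4 in control, 42.0, 44.8 and 49.8 with IL-4, 63.5, 67.9 and 56.3 with IL-4/IL-6, 40.9, 33.3 and 36.6 with IL-13 and 37.4, 32.8 and 39.3 with IL-13/IL-6, so that IL-6 gave separate groups on IL-4 and overlapping ones on IL-13. Gnl3 (nucleostemin), a nucleolar GTPase, had the largest IL-6 response of the group on IL-4, from 109, 113 and 105 to 161, 167 and 148, a change of 0.54 ± 0.07 (SE), adjusted p = 3.55e-06. With IL-13 it was at 91.7, 87.7 and 86.5 and with IL-13/IL-6 at 104, 92.3 and 102. Those groups did not overlap, and the change of 0.16 ± 0.07 (SE), adjusted p = 0.0862, was not called. It was called without both libraries that stood apart, at 0.18 (adjusted p = 0.0272), and without IL-13/IL-6 replicate 2.

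Nip7, which acts late in the processing of the precursor, had the largest IL-6 response of the large subunit genes on IL-13. It was at 41.2, 35.0 and 34.1 with IL-13 and 48.2, 42.2 and 49.2 with IL-13/IL-6, without overlap, a change of 0.34 ± 0.12 (SE), adjusted p = 0.0383, that was lost in some alternatives. Rrs1, which loads a ribosomal RNA of the large subunit, was at 20.4, 22.3 and 18.1 in control, 86.4, 90.9 and 100.03 with IL-4, 124, 139 and 134 with IL-4/IL-6, 76.7, 65.6 and 70.0 with IL-13 and 74.2, 67.2 and 73.5 with IL-13/IL-6. IL-6 raised it on IL-4 by 0.52 ± 0.08 (SE), adjusted p = 7.04e-05, and on IL-13 the groups overlapped (0.02 ± 0.08). The methyltransferases Nop2 (1.98 ± 0.08) and Ftsj3 (1.51 ± 0.07), the helicase Ddx18 (1.13 ± 0.09), Noc3l (0.74 ± 0.08), Ebna1bp2 (1.62 ± 0.12) and Mrto4 (1.56 ± 0.13) also rose with IL-4 and again with IL-6 on IL-4, by 0.28 (Ftsj3) to 0.40 (Ebna1bp2). Without both libraries that stood apart these changes were 0.22 for Ebna1bp2, 0.20 for Ddx18 and 0.17 for Mrto4, whose call was lost. Nop16 (1.78 ± 0.12), Rrp1b (1.42 ± 0.09), Brix1 (1.20 ± 0.10) and Noc2l (1.37 ± 0.06) rose with IL-4 and, like Ppan, were not called with IL-6 in the fit of all libraries. Brix1 was at 55.7, 48.1 and 59.7 with IL-4, 60.3, 67.9 and 56.8 with IL-4/IL-6, 48.0, 40.4 and 40.8 with IL-13 and 48.4, 44.8 and 47.5 with IL-13/IL-6, and both pairs overlapped.

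The response to IL-6 was tested for a difference between the IL-4 and the IL-13 background. It was larger with IL-4 for 8 of 51 members and smaller for none, beside 3.22% and 4.42% of all tested genes, and the median difference of the members was 0.21, beside 0.02. That median was 0.137 without IL-13 replicate 1 and 0.101 without IL-4/IL-6 replicate 2 and IL-13 replicate 1 together. The 8 were Ncl, Nolc1, Ddx21, Nat10, Rrp12, Wdr12, Rrs1 and Gnl3. The largest of these differences was that of Rrs1, 0.50 ± 0.12 (SE), adjusted p = 0.0125. For Myc the difference was 0.07 ± 0.09 (SE), adjusted p = 0.771. The calls of 4 of the 8 (Ncl, Nolc1, Nat10 and Rrs1) held in all 23 alternatives. The count was 13 without IL-4/IL-6 replicate 2 and 13 without it and IL-13 replicate 1, beside 4.25% and 8.58% of all tested genes. Without both, Wdr12 was not called (0.33) and Mybbp1a, Polr1a, Utp20, Heatr1, Nop2 and Ftsj3 were, at 0.29 (Nop2) to 0.53 (Polr1a). The count was 4 without IL-4/IL-6 replicate 1 or IL-13/IL-6 replicate 2, and 5 without IL-13/IL-6 replicate 1, IL-13 replicate 1 or 3, or any single control or IL-4 library, where 2.05% to 3.16% of all tested genes were larger with IL-4. The IL-4 and IL-13 doses differ between the backgrounds, so dose and cytokine cannot be told apart here.

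**Figure D4:**
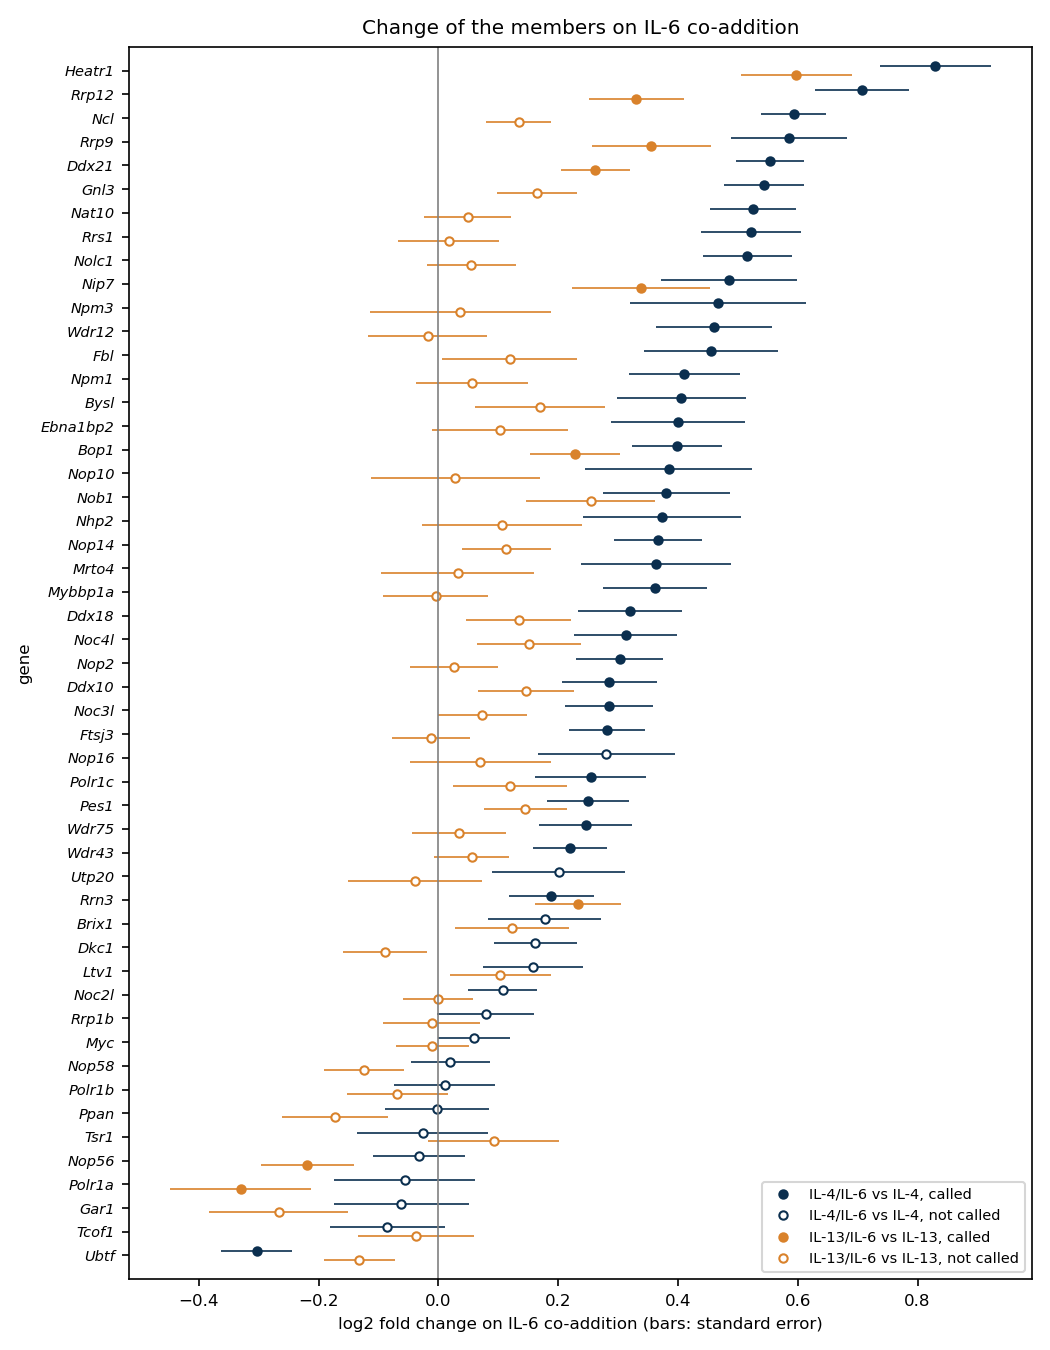
Log2 fold change (x axis, with bars for the standard error) of each tested member (rows) when IL-6 was co-added to IL-4 (dark blue) or to IL-13 (orange), with filled points for called changes. Heatr1 leads in both (0.83 and 0.60), most blue points lie right of 0, and the orange points scatter around 0.

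Between members, levels can be set against each other only per length, here as the deposited FPKM values. Npm1, Nhp2 and Ncl had the highest FPKM of the members in control, at 121 ± 1.77, 39.2 ± 2.69 and 36.3 ± 0.461 (mean ± SD, n = 3), and with IL-4, at 248 ± 9.89, 132 ± 4.69 and 83.4 ± 3.23. In control the values of Nhp2 and Ncl were close to each other's spread. Myc stood at rank 39 of 51 in control (4.52 ± 0.101 FPKM), rank 8 with IL-4 (45.8 ± 0.440), 14 with IL-4/IL-6 (44.5 ± 2.17) and 13 with IL-13 (33.8 ± 1.16) and IL-13/IL-6 (32.0 ± 1.73). With IL-4 its neighbours in the order, Nop56 (45.7 ± 2.08) and Rrs1 (45.6 ± 3.29), did not differ from it beyond their spread. The lowest with IL-4 were Wdr12 (3.85 ± 0.321), Rrp1b (5.32 ± 0.341), Polr1a (5.96 ± 0.0891) and Polr1b (6.38 ± 0.158).

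Other genes of the pathway, from lists made beside the members, gave a frame for these changes. Among 67 further ribosome assembly factors, 55 (82.1%) rose and 3 (4.48%) fell (Gnl3l, Ddx52 and Krr1) with IL-4 (median 0.70). Of all tested genes, 32.1% rose and 35.9% fell. With IL-13, 54 (80.6%) of the factors rose and 3 (4.48%) fell, beside 29.0% and 31.1% of all tested genes. Leaving out 1 library kept the higher count with IL-4 at 54 or more, and the lower count was 1 in several of these fits. Rrp15, a factor of large subunit maturation, went from 10.6, 9.86 and 9.99 to 32.5, 38.1 and 39.7 with IL-4, and Wdr46 and Nle1 rose by 1.82 ± 0.08 and 1.65 ± 0.12. IL-6 on IL-4 raised 33 of 67 (49.3%, beside 20.7% of all tested genes) and lowered none, and the helicase Ddx31 led with 0.67 ± 0.06 (SE), adjusted p = 1.58e-07, followed by Pno1 (0.54 ± 0.08) and Emg1 (0.52 ± 0.11). That count was 20 without IL-4 replicate 1, 19 without IL-4/IL-6 replicate 1 and 17, with 2 lower, when libraries were scaled by their totals, beside 14.4% to 16.3% of all tested genes higher. With IL-6 on IL-13, 6 rose (8.96%) and 1 fell (1.49%; Utp3, -0.30 ± 0.10), shares below the 12.1% and 13.5% of all tested genes, and the alternatives gave 2 to 12 higher.

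The cytosolic ribosomal proteins are the parts from which the subunits are built. With IL-4, 75 of 78 (96.2%, beside 32.1% of all tested genes) were called higher and none lower, with a median of 0.61. They include Rpl36 (1.03 ± 0.18) and Rplp2 (0.99 ± 0.17). With IL-13, 36 of 78 (46.2%, beside 29.0% of all tested genes) were called higher and none lower. That count was 17 without IL-13 replicate 1, 19 without control replicate 1 or 3, and 64 without IL-4/IL-6 replicate 2, beside 26.1% to 32.5% of all tested genes in these fits. Adding IL-6 to IL-4 raised 22 of 78 (28.2%, beside 20.7% of all tested genes), led by Rpl13a (1.10 ± 0.13 (SE), adjusted p = 1.46e-06), and this count rested on single libraries and on the scaling. It was 5 with upper-quartile factors and 9 with library totals. It was 4 without IL-4/IL-6 replicate 2, 65 without IL-4/IL-6 replicate 3, 5, 6 and 11 without IL-4 replicates 1, 2 and 3, and 14 without control replicate 1, while 14.4% to 20.8% of all tested genes were higher in these fits, and the summed share of counts was 6.29% in the highest and 4.30% in the lowest IL-4/IL-6 library. With IL-6 on IL-13, 2 of 78 rose (2.56%, beside 12.1% of all tested genes), and 72 did without IL-4/IL-6 replicate 2 and IL-13 replicate 1, where 2425 of 14261 tested genes were higher. Many of these genes have near-identical processed copies that can share reads, so their single values are uncertain.

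Known targets of Myc outside the ribosome were followed as well. Of 21 tested, 20 (95.2%) rose with IL-4 and none fell (median 1.44), and 19 (90.5%) rose with IL-13. Of all tested genes, 32.1% rose with IL-4 and 29.0% with IL-13. Slc7a5, which imports large neutral amino acids, went from 5.05, 3.88 and 4.88 in control to 44.7, 47.9 and 43.3 with IL-4, and Srm, the spermidine synthase, from 11.8, 13.2 and 13.5 to 89.9, 88.0 and 85.9. Neither gene overlapped between these groups, with changes of 3.29 ± 0.11 and 2.77 ± 0.12. Of the 21, 11 (52.4%, beside 20.7% of all tested genes) rose with IL-6 on IL-4 and none fell. Tfrc, the transferrin receptor, rose from 282, 271 and 294 to 945, 828 and 903 (1.66 ± 0.07), and Odc1, which starts polyamine synthesis, from 123, 125 and 126 to 306, 328 and 265 (1.27 ± 0.08). With IL-6 on IL-13, 5 (23.8%) rose and 2 (9.52%) fell, beside 12.1% and 13.5% of all tested genes. Without IL-13 replicate 3 or IL-13/IL-6 replicate 1, 3 were higher. Tfrc and Odc1 again led (1.499 ± 0.07 and 0.70 ± 0.08).

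Of 13 tested partners, antagonists and paralogs of Myc, 2 (15.4%) rose with IL-4 (Max, 0.29 ± 0.08, and Mlx, 0.32 ± 0.06, named because the count is small) and 8 (61.5%) fell. Of all tested genes, 32.1% rose and 35.9% fell with IL-4. Mxd1, which competes with Myc for Max, was at 29.8, 27.7 and 29.8 in control, 6.85, 6.03 and 7.04 with IL-4, 12.9, 11.02 and 12.6 with IL-4/IL-6, 7.28, 7.15 and 6.96 with IL-13 and 12.7, 13.6 and 14.6 with IL-13/IL-6. All control libraries lay above all others, and those with IL-6 lay above those without. It changed by -2.13 ± 0.10 with IL-4 and 0.87 ± 0.11 (SE), adjusted p = 3.19e-06, with IL-6 on IL-4. The paralogs Mycl and Mycn were low in control (1.77, 1.88 and 2.02, and 0.782, 1.11 and 1.51) and at or under 3 counts in each IL-4 library. Against a floor of 3 counts per library, Mycl was at least 11.6-fold and Mycn at least 6.94-fold lower with IL-4 than in control, beside the markers of other blood cells that are also higher in control. With IL-6 on IL-4, 5 of the 13 (38.5%) rose and 3 (23.1%) fell, beside 20.7% and 18.7% of all tested genes. Mxd3, another antagonist, fell by 1.62 ± 0.26 on the log2 scale.

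Of the cell cycle genes, all fell when IL-6 was added. With IL-4 over control, 5 of 12 rose and 6 fell, beside 32.1% and 35.9% of all tested genes. The replication genes Mcm2 (2.49 ± 0.07), Mcm5 (2.45 ± 0.07) and Pcna (1.84 ± 0.10) were up, and the mitotic kinase Plk1 (-1.62 ± 0.12) was down. With IL-6 on IL-4, 12 of 12 fell (median -1.44), as did 12 of 12 with IL-6 on IL-13 (median -1.32), and these counts were the same in every alternative. Of all tested genes, 18.7% fell with IL-6 on IL-4 and 13.5% with IL-6 on IL-13. Plk1 was at 12.2, 14.1 and 12.1 with IL-4 and 2.84, 2.53 and 2.99 with IL-4/IL-6, and at 17.5, 16.7 and 18.86 with IL-13 and 5.09, 3.47 and 3.84 with IL-13/IL-6. The groups with and without IL-6 did not overlap. The part of cell division in the members' levels was not tested.

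**Figure D5:**
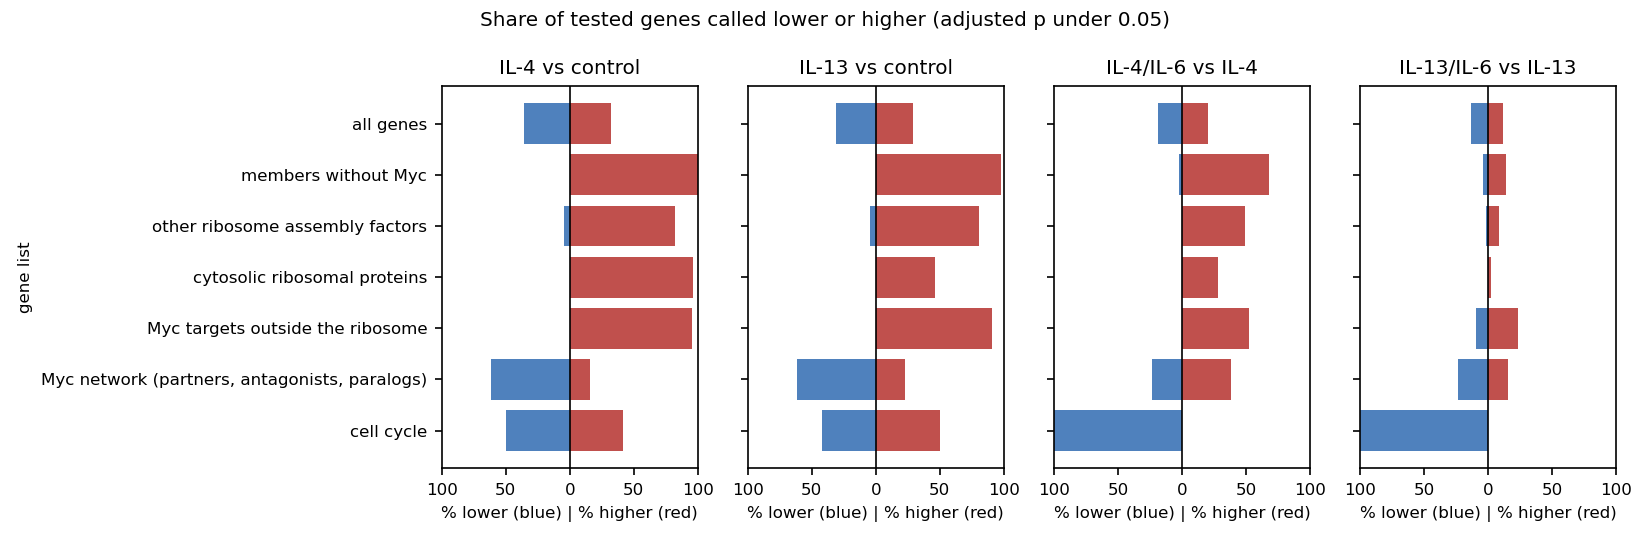
Percent of the tested genes of each list called higher (red, to the right) or lower (blue, to the left) in 4 comparisons, with all 13938 tested genes on top. With IL-4 over control 100% of the members without Myc and 96.2% of the ribosomal proteins are red, and with IL-6 all of the cell cycle bar is blue in both backgrounds.

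Some members share transcribed sequence with another gene on the opposite strand, and whether the counting used strand is not given in the sources used here. The overlapping genes Mpp1 (over Dkc1), Mroh1 (over Bop1), Idh3b (over Nop56), Parp3 (over Rrp9) and Ccnd3 (over Bysl) had more counts in the 15 libraries than the member itself, such as 86657 for Mpp1 and 13309 for Dkc1. Rmnd5b, Pbrm1, Lgals8, Carf and Srr likewise overlap exons of Nhp2, Gnl3, Heatr1, Wdr12 and Tsr1. The values of these members are uncertain where reads could not be assigned to a strand. Myc, Npm1, Fbl, Nolc1, Ddx21 and Rrp12 share no exon with another annotated gene.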

How the data were processed

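RNA sequencing was done on 15 libraries of mouse BMDMs, 3 in each of 5 groups. The submitters' processing notes name the genome build GRCm38 and the tools CASAVA, Bowtie2 2.2.3, HISAT2 2.1.0, TopHat2 and DESeq2. The counting tool and its strand setting are not given in the sources used here. The authors deposited raw read counts per gene and FPKM values. The deposited FPKM equal the count divided by length and by the library total, to a relative spread of 4.79e-07 over 268061 values.

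Counts were tested with edgeR 4.0.16 (R 4.3.3), by quasi-likelihood fits over all 15 libraries with TMM factors and filterByExpr (minimum count 10), and p-values were adjusted by Benjamini-Hochberg over 13938 genes. A call needs an adjusted p under 0.05. Groups come from the sample labels. Log2 fold changes are given ± SE and levels ± SD of 3 libraries. FPKM were used only to order members by level. Library totals were 17001352 to 18918686 counts. On simulated data for IL-4 over control (13938 genes), the fit called 36 of 66 genes changed by an absolute log2 fold of 0.5. It called 58 of 67 changed by 1 and 67 of 67 changed by 2, so small changes can go uncalled. The changed genes were drawn without regard to the members' levels, and the comparisons with IL-6 were not simulated. These counts therefore do not give the share of members that would go uncalled with IL-6. DESeq2 1.42.0, other scalings, filters, a replicate block and the leaving out of libraries were tried, and the offset for length and the joint leaving out of 2 libraries were chosen after seeing the data. The numbers of the replicates did not pair the libraries.

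The members and lists were chosen with earlier results of these data known. Values per library are given for Myc and for the members of each role group with the largest and smallest change, counted with its sign, in each comparison. From each pathway list, up to 3 called genes with the largest change in size are given. Riok2 was not matched among 68 further assembly factors. The members shown in addition were chosen after their values were seen. Some single genes and one detail of the mouse strain are not reported here.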

Additional observations from a re-analysis of the deposited data

Results flagged for a closer look

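For 8 members the response to IL-6 differed between the IL-4 and the IL-13 background, by the test of the difference itself (edgeR, adjusted over all genes). The log2 difference, IL-4 background minus IL-13 background, was 0.46 for Ncl, 0.46 for Nolc1, 0.48 for Nat10, 0.48 for Wdr12, 0.50 for Rrs1, 0.38 for Gnl3, 0.38 for Rrp12 and 0.29 for Ddx21. In all 8 (15.7% of the members) the rise with IL-6 was larger on IL-4, beside 3.22% of all tested genes larger and 4.42% smaller. The calls of Ncl, Nolc1, Nat10 and Rrs1 held in all 23 alternatives, and those of Ddx21, Rrp12, Wdr12 and Gnl3 did not. For 6 of the 8 (Ncl, Nolc1, Nat10, Rrs1, Wdr12 and Gnl3) the rise was called on IL-4 and not on IL-13 in the fit of all libraries. For Ddx21 and Rrp12 it was called on both. Ncl and Gnl3 were higher in every IL-13/IL-6 library than in every IL-13 library, and both were called on IL-13 without IL-4/IL-6 replicate 2 and IL-13 replicate 1, at 0.16 (adjusted p = 0.00929) and 0.18 (adjusted p = 0.0272). In that fit the difference between backgrounds was 0.40 for Ncl and 0.31 for Gnl3, both called, and 0.33 for Wdr12, not called. The doses of IL-4 and IL-13 differed, and their part in these differences was not tested.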

How the results depend on the processing

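The members' calls over control held in all 24 alternatives, while calls on IL-6 co-addition depended on single libraries and on the scaling. Scaling by library totals moved the median of all genes in IL-4/IL-6 over control by -0.15. With library totals the members' median was 1.327 (IL-4 over control), 1.469 (IL-4/IL-6 over control), 1.148 (IL-13/IL-6 over control) and 0.207 with 22 higher (IL-6 on IL-4), and IL-6 on IL-13 gave a median of -0.012, a change of sign, with 4 higher and 6 lower. Upper-quartile factors gave 1.547 (IL-4/IL-6 over control), 4 higher with IL-6 on IL-13 and 5 for the difference between backgrounds. No filter on low counts gave medians of 1.451 (IL-4), 1.23 (IL-13) and 1.319 (IL-13/IL-6) over control, 1 lower with IL-6 on IL-13 and 5 for the difference. The fit of the 9 libraries of the cytokine gave 1.43 (IL-4 over control). Without IL-4/IL-6 replicate 2 and IL-13 replicate 1 together, IL-4 over control was 1.416, IL-6 on IL-13 gave 17 higher with a median of 0.118, and the difference gave 13. Summed normalized CPM in place of raw counts gave member shares of 0.232% (control), 0.759% (IL-4/IL-6) and 0.527% (IL-13/IL-6), and rescaled FPKM moved 4 ranks of members. The cause of these moves was not tested.

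Leaving out 1 library gave medians of 1.366 to 1.422 (IL-4 over control) and 0.018 to 0.119 (IL-6 on IL-13). The count of higher members ran from 22 to 34 (IL-6 on IL-4), from 3 to 9 (IL-6 on IL-13, with 0 to 3 lower) and from 4 to 13 (the difference).

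Libraries of the same number did not deviate together (30 pairs, correlations of -0.276 to 0.163, and 3 of 15 libraries correlated best with their own number). The replicate block gave 32 higher members with IL-6 on IL-4, 0 lower with IL-6 on IL-13 and 5 for the difference.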
